A study of Mus musculus with 12 samples.

Results

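Chemokines are small secreted proteins that steer leukocytes, and 10 of their genes were described here across sorted mouse hepatocytes: Cxcl1, Cxcl9, Cxcl10, Cxcl12, Cxcl16, Ccl2, Ccl5, Ccl6, Ccl9 and Cx3cl1. These 10 genes were taken by name from the 54839 features of the table, and 9 of them were among the 17121 genes that had enough counts to be tested. Cx3cl1 was not, and is given by its raw counts only. The libraries were bulk RNA-seq of hepatocytes from male p16-Tom mice of C57BL/6 background, heterozygous for p16-CreERT2 and R26-CAG-LSL-tdTomato-WPRE, in which cells with p16 promoter activity turn on tdTomato (Tom) for good once tamoxifen has been given. Tamoxifen at 80 mg/kg was used in the controls as well, and the ages were not given in the sources used here. Mice had intraperitoneal corn oil or CCl4, a hepatotoxin that damages the liver around the central vein, at 1 mL/kg every 3 days, and the fibrosis model of the study ran for 4 weeks. Hepatocytes were freed by collagenase perfusion, pelleted by slow spins and sorted without DAPI+ cells into Tom+ and Tom- fractions. This gave 4 groups of 3 libraries (Tom- oil, Tom+ oil, Tom- CCl4 and Tom+ CCl4), and the question was whether treatment or fraction moved these ligands. The reporter marks p16 promoter activity in any cell type, so that the hepatocyte identity rests on the spins and the sort.

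CXC chemokines carry another residue between the first cysteine pair and CC chemokines do not, while CX3CL1 and CXCL16 are also made as membrane-bound proteins that proteases can release. All of them act on G protein-coupled receptors of leukocytes and other cells, and atypical receptors take them up without such signalling. In injured liver they are known for drawing in monocytes, neutrophils and T cells, and hepatocytes, Kupffer cells, stellate cells and sinusoidal endothelial cells can each make some of them.

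The promoters of 4 of the genes are shown because the results below turn on 2 pairs of neighbours: Cxcl9 and Cxcl10 lie close to each other on chromosome 5 and varied together among libraries, whereas Ccl6 and Ccl9 lie close to each other on chromosome 11 and did not. Each stretch runs 5′ to 3′ on the gene's own strand from 250 bases before to 50 bases after the RefSeq start site (GRCm38.p6), and capitals mark the matches to the motifs searched.
Cxcl9, chr5:92328030-92328329, minus strand: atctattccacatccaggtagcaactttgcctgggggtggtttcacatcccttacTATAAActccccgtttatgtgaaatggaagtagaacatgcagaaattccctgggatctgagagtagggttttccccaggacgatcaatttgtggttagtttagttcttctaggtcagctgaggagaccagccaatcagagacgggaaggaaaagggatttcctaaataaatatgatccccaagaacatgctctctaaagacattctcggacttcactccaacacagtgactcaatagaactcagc
Cxcl10, chr5:92348840-92349139, minus strand: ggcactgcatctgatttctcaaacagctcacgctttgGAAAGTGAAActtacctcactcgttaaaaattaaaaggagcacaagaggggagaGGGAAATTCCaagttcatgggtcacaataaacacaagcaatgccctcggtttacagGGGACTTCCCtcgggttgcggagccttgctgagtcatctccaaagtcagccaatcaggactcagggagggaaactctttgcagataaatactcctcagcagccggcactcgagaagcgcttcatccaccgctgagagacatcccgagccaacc
Ccl6, chr11:83593038-83593337, minus strand: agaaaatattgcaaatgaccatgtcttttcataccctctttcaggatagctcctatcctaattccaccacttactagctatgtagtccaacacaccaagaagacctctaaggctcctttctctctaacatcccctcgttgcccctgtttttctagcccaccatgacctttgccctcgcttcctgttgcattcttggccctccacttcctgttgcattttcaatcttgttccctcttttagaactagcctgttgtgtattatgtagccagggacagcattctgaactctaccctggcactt
Ccl9, chr11:83578587-83578886, minus strand: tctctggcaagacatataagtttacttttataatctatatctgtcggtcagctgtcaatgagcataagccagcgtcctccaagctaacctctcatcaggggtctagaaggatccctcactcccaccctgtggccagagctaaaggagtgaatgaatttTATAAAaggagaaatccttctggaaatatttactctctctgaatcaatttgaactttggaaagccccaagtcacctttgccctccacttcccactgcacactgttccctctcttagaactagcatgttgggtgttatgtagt
The motifs were a kappaB-like one (GGGA followed directly by NNTNCC), the interferon-stimulated one (GAAA, then NN, then GAAA) and the STAT-type TTCNNNGAA on both strands, and TATAAA on the gene's strand. Of 32851 promoters of this length, 4.01% held the first, 3.44% the second, 8.3% the third and 8.32% the last. Promoters were found for 7 of the 10 genes, the other matched ones being Cxcl1, Cxcl12 and Cx3cl1. The Cxcl10 promoter held the interferon-stimulated motif as GAAAGTGAAA and the kappaB-like motif as GGGAAATTCC and GGGACTTCCC. The Cxcl1 promoter held overlapping matches that include GGGAATTTCC, and Cxcl9, Ccl9 and Cx3cl1 each held a single TATAAA. Cxcl12 and Ccl6 held none of the 4 motifs. These are matches of letters and no measurement of binding.

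Total counts per library ranged from 37568584 to 75331424, and 3 counts, the floor used here, corresponded to 0.0369 to 0.0829 CPM (counts scaled to library size by TMM). The tdTomato reporter went against the label in 2 oil libraries, Tom- oil replicate 1 (1794 CPM) and Tom+ oil replicate 2 (135 CPM), and both kept their labels. Fits without them are given as an alternative. In oil, Tom+ libraries had 0.862, 0.863 and 8.57 times the reporter CPM of the Tom- library of the same replicate number. In CCl4 the ratios were 10.9, 5.0 and 11.4. By the reporter, 2 of the 3 oil pairs thus did not separate into a higher Tom+ and a lower Tom- library. The 10 hepatocyte markers summed to between 102800 and 149600 CPM in every library. Markers of other liver cells were present at lower levels: 20.7 to 240 CPM for 12 Kupffer cell and macrophage genes, 157 to 421 CPM for 10 endothelial genes and 9.26 to 115 CPM for 10 stellate cell genes. The 10 T and NK cell genes stayed at or below 1.08 CPM in total, and Ptprc, the pan-leukocyte gene, at 0.368 to 4.26 CPM. In bulk libraries fewer cells of a type and less RNA per cell cannot be told apart. Nothing in the sources used here says that the libraries of a group came from separate mice, so that p-values measure the spread between these libraries.

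Cxcl12, the ligand of CXCR4 that holds hematopoietic cells in their niches, had the highest level of the 10 genes on the length-normalized TPM scale, with a median of 67.9 TPM over the 12 libraries (range 55.2 to 81.1). Ccl9, a CCR1 ligand of myeloid cells, followed with a median of 37.1 TPM (23.2 to 51.9). Cxcl12 was above Ccl9 in 12 of 12 libraries and Ccl9 above Cxcl9 in 11. Cxcl9, an interferon-gamma-induced CXCR3 ligand (median 17.8 TPM, range 5.67 to 50.7), and Cxcl1, a CXCR2 ligand that draws neutrophils (15.3 TPM, 6.22 to 33.0), did not stand apart, since Cxcl9 was the higher in 7 libraries. Cxcl16 (4.56 TPM) and Cxcl10 (3.52 TPM) did not separate either, with Cxcl16 higher in 6 libraries. Ccl6, like Ccl9 a CCR1 ligand of myeloid cells, had a median of only 1.52 TPM (0.299 to 25.2 TPM). Its ratio of highest to lowest library, 84.4, was the largest of the genes found in every library. The T cell and monocyte attractant Ccl5 (0.556 TPM), the CCR2 ligand Ccl2 (0.182 TPM) and the membrane-bound CX3CR1 ligand Cx3cl1 (0.0311 TPM) lay at the bottom. Together the 10 genes made up 91.2% to 95.8% of the summed TPM of 38 chemokine ligand genes, and Cxcl12 alone 28.3% to 50.4%. The summed ligand level was 161 ± 36.7 TPM in Tom- oil, 181 ± 11.6 in Tom+ oil, 156 ± 6.57 in Tom- CCl4 and 167 ± 17.0 in Tom+ CCl4 (SD, n = 3 each), with overlapping ranges.

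**Figure D1:**
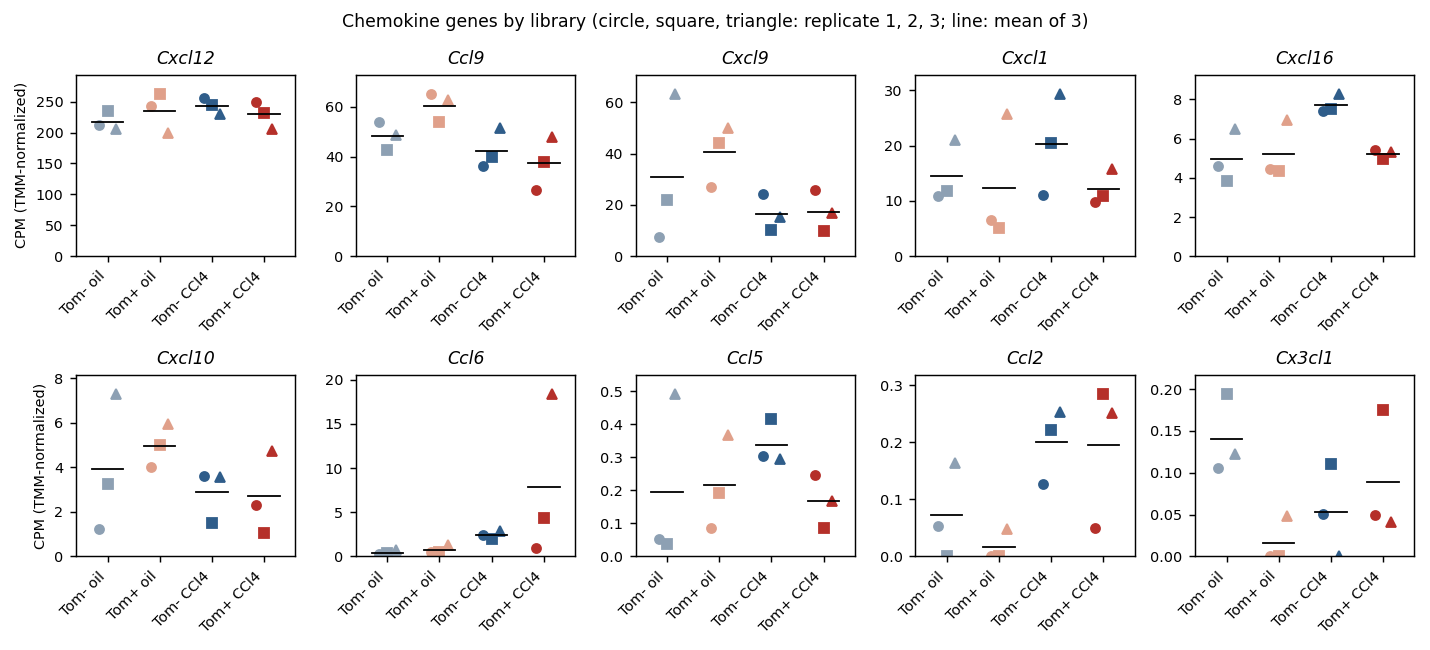
Level of each of the 10 chemokine genes in TMM-normalized CPM (linear axes from 0, one scale per gene) in the 12 libraries, with symbols for replicates 1 to 3 and a line at the mean of each group. Cxcl12 stays between 199 and 262 CPM in all groups, whereas Ccl6 reaches 18.3 CPM in 1 Tom+ CCl4 library.

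CCl4 was first compared with oil within each fraction. Of the 9 genes tested, 1 passed the thresholds in Tom+ cells (Ccl6, higher) and 0 in Tom- cells, at an edgeR adjusted p under 0.05 and a log2 fold change beyond 0.75. Over all genes tested, 5.24% were called in Tom+ cells (2.9% higher and 2.34% lower) and 7.92% in Tom- cells (6.33% higher and 1.59% lower). Without these thresholds 5388 genes in Tom- and 4169 in Tom+ cells had an unadjusted p under 0.05. The median log2 fold change of the 9 genes was 0.48 in Tom- cells, where that of all genes was 0.0046, and -0.034 in Tom+ cells, where that of all genes was 0.0020. The groups did not overlap for 2 genes that were higher in Tom- CCl4 (Ccl6 and Cxcl16), beside 19.3% of all genes. In Tom+ cells they did not overlap for 1 higher gene (Ccl2, beside 14.6%) and 2 lower genes (Cxcl9 and Ccl9, beside 14.6%), where 29.3% of all genes had no overlap in either direction.

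Ccl6 (chr11:83587882-83593087, minus strand, mm10) had the largest ratio of highest to lowest library of the genes found in every library. Its level was 0.237, 0.388 and 0.695 CPM in Tom- oil and 2.45, 1.96 and 2.83 CPM in Tom- CCl4, from 9, 20 and 34 and from 97, 71 and 134 counts. In Tom+ cells it was 0.462, 0.496 and 1.25 CPM in oil and 0.985, 4.32 and 18.3 CPM in CCl4, from 32, 26 and 51 and from 80, 198 and 878 counts. All 3 Tom- CCl4 libraries were thus above all 3 Tom- oil libraries, while Tom+ CCl4 replicate 1 lay below Tom+ oil replicate 3. The log2 fold change was 3.45 (SE 0.939, 95% interval 1.61 to 5.29) in Tom+ cells with an edgeR adjusted p of 0.0499, directly at the threshold. It was 2.43 (SE 0.974, 0.52 to 4.34) in Tom- cells with an adjusted p of 0.122. The difference between these estimates, tested as an interaction of fraction and treatment, was 1.02 (SE 1.33, adjusted p = 0.733), and -0.57 without Tom+ CCl4 replicate 3. Averaged over both fractions, an alternative with 6 libraries on each side, Ccl6 was higher by 2.94 (SE 0.674, adjusted p = 0.0138). That average counts same-numbered Tom+ and Tom- libraries separately although they deviated together, and with the counts of each such pair summed (3 pairs against 3, a fit added after seeing the data) the value was 3.12 (SE 0.858) with an adjusted p of 0.0881. The Tom+ value rested on Tom+ CCl4 replicate 3, without which it was 1.86 with an adjusted p of 0.117, and it was 3.25 (adjusted p = 0.185) without the 2 oil libraries whose reporter went against the label. The call held in 1 of 12 fits that left out a single library, the fit without Tom+ CCl4 replicate 1 (3.98, adjusted p = 0.00498). Over all alternatives it held in 6 of 24, among them DESeq2 over the 12 libraries (3.43, SE 0.883, DESeq2 adjusted p = 0.00202).

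The Kupffer cell and macrophage markers were set beside Ccl6, and their part in the result was not tested. They summed to 20.7, 26.6 and 111 CPM in Tom- oil, 39.6, 34.5 and 168 CPM in Tom+ oil, 148, 144 and 179 CPM in Tom- CCl4 and 87.5, 81.2 and 240 CPM in Tom+ CCl4. None of the 12 markers was called in either fraction in the fit over 12 libraries, although 12 of 12 in Tom- and 11 of 12 in Tom+ had a positive fold change. Between the CCl4 fractions 10 of the 12 had a negative fold change (lower in Tom+), whereas that of Ccl6 was positive and not called. The order of the libraries was not the same for both measures. Tom+ CCl4 replicate 2 had 4.32 CPM of Ccl6 with 81.2 CPM of the markers, and Tom+ oil replicate 3 had 1.25 CPM with 168 CPM. Tom+ CCl4 replicate 3 was the highest library for Ccl6, for these markers and for the 7 monocyte and neutrophil markers (7.12 CPM, against 0.155 to 2.01 CPM in the other libraries). Among the latter, Itgam, an integrin of myeloid cells, accounted for 6.07 CPM. Of these 7 markers 4 were tested. With CCl4, 1 was called higher in Tom+ and 0 in Tom- cells, beside 2.9% and 6.33% of all genes.

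**Figure D2:**
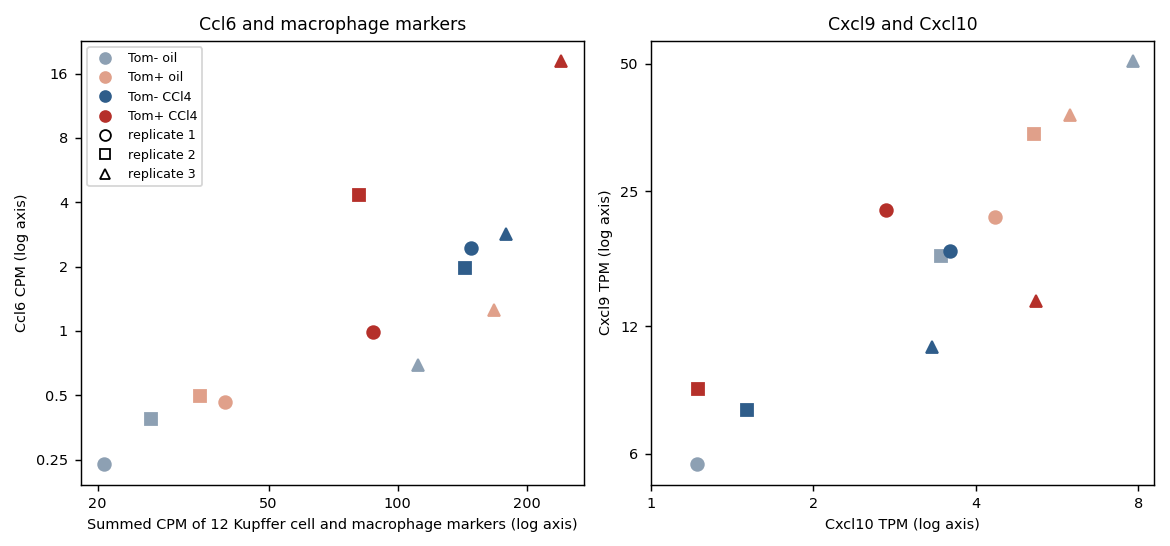
Left, Ccl6 CPM against the summed CPM of 12 Kupffer cell and macrophage markers, and right, Cxcl9 TPM against Cxcl10 TPM, each point being 1 of 12 libraries on log axes, with colours for groups and symbols for replicate numbers. Tom+ CCl4 replicate 3 stands highest on both axes at left (18.3 and 240 CPM), and at right the libraries follow a common slope from Tom- oil replicate 1 to Tom- oil replicate 3.

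Ccl9 (chr11:83572919-83578636, minus strand, mm10), close to Ccl6, had lower values with CCl4 in Tom+ cells. It was at 65.1, 53.8 and 62.5 CPM in Tom+ oil and 26.6, 37.8 and 47.9 CPM in Tom+ CCl4, so that every CCl4 library lay below every oil library. The log2 fold change was -0.69 (SE 0.19) with an edgeR adjusted p of 0.0388, which is under 0.05 but inside the fold threshold, so that Ccl9 was not counted as called. Over the alternatives the adjusted p ranged from 0.00499 to 0.137, being 0.0758 without the 2 oil libraries whose reporter went against the label. Without Tom+ CCl4 replicate 3 the value was -0.91 (adjusted p = 0.0128), which would be a call, and without Tom+ CCl4 replicate 1 it was -0.50 (adjusted p = 0.065). In Tom- cells it was at 53.8, 42.7 and 48.5 CPM in oil and 36.0, 39.9 and 51.4 CPM in CCl4, overlapping, with a log2 fold change of -0.19 (SE 0.19, adjusted p = 0.532). Averaged over both fractions it was -0.44 (adjusted p = 0.0343), and with same-numbered fractions summed -0.49 (adjusted p = 0.137). The TPM ratio of Ccl9 to Ccl6 was 29.5 to 134 in the 6 oil libraries and 1.54 to 15.9 in the 6 CCl4 libraries. How often the ratio of other gene pairs separates in this way was not counted. Same-numbered Tom+ and Tom- libraries also resembled each other, so that the libraries on each side are not independent. Ccl6 by itself overlapped between oil and CCl4 in Tom+ cells.

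Ccl2 (chr11:82035571-82037453, plus strand, mm10), the main attractant of CCR2+ monocytes, was close to the limit of detection. It had 2, 0 and 8 counts in Tom- oil, 0, 0 and 2 in Tom+ oil, 5, 8 and 12 in Tom- CCl4 and 4, 13 and 12 in Tom+ CCl4. The CCl4 libraries were above the oil libraries in Tom+ cells per library size, by a narrow margin for Tom+ CCl4 replicate 1, and in Tom- cells the groups overlapped through Tom- oil replicate 3. The summed counts per library size were 13.5 times higher in Tom+ CCl4 than in Tom+ oil, with an exact 95% interval of 3.41 to 116. That interval covers counting error only, and too narrowly, since both mates of a pair appear to be counted. The fitted log2 fold changes were 3.62 (SE 1.31, edgeR adjusted p = 0.105) in Tom+ and 1.45 (SE 1.07, adjusted p = 0.38) in Tom- cells, and neither was called. Leaving out single libraries moved these values from 2.94 (without Tom+ oil replicate 1) to 6.28 (without Tom+ oil replicate 3) in Tom+ and from 0.84 (without Tom- oil replicate 2) to 2.98 (without Tom- oil replicate 3) in Tom- cells. Averaged over both fractions Ccl2 and Ccl6 were the 2 genes called higher, Ccl2, by 2.53 (SE 0.851, adjusted p = 0.0476), in a comparison in which 8.43% of all genes were called, 6.17% higher and 2.26% lower. With same-numbered fractions summed, the value was 2.17 (SE 0.99, adjusted p = 0.208), and neither Ccl2 nor Ccl6 was called.

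Ccl5 (chr11:83525778-83530518, minus strand, mm10), which draws T cells and monocytes, was also low. It had 2, 2 and 24 counts in Tom- oil, 6, 10 and 15 in Tom+ oil, 12, 15 and 14 in Tom- CCl4 and 20, 4 and 8 in Tom+ CCl4. Tom- oil replicate 3 held most of the counts of its group, and the groups overlapped in both CCl4 comparisons. The log2 fold change in Tom- cells was 0.77 (SE 0.842, edgeR adjusted p = 0.566), but 2.83 (adjusted p = 0.0559) without Tom- oil replicate 3 and 0.27 without Tom- oil replicate 2.

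Among the CXC genes, Cxcl9 (chr5:92321347-92328079, minus strand, mm10) and Cxcl10 (chr5:92346638-92348889, minus strand), both CXCR3 ligands induced by interferon, had their highest libraries in oil. Cxcl9 was at 7.57, 22.1 and 63.3 CPM in Tom- oil, 27.0, 44.3 and 50.2 in Tom+ oil, 24.3, 10.3 and 15.3 in Tom- CCl4 and 25.7, 9.80 and 16.8 in Tom+ CCl4. Every Tom+ CCl4 library lay below every Tom+ oil library, and the Tom- oil libraries alone spanned the values of all other groups. The log2 fold changes were -1.21 (SE 0.703, edgeR adjusted p = 0.34) in Tom+ and -0.90 (SE 0.705, adjusted p = 0.423) in Tom- cells, neither of them called. The Tom- value turned to 0.16 without Tom- oil replicate 3. Cxcl10 was at 1.21, 3.24 and 7.27 CPM in Tom- oil, 4.02, 4.98 and 5.92 in Tom+ oil, 3.59, 1.52 and 3.55 in Tom- CCl4 and 2.31, 1.05 and 4.72 in Tom+ CCl4. Its groups overlapped in both comparisons, with log2 fold changes of -0.88 (SE 0.641, adjusted p = 0.449) in Tom+ and -0.44 (SE 0.645, adjusted p = 0.681) in Tom- cells, the latter 0.36 without Tom- oil replicate 3. Cxcl10 shares exon positions with Art3 on the opposite strand, so that its counts are uncertain if strand was not used in counting.

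Cxcl1 (chr5:90891241-90893115, plus strand, mm10) was at 10.8, 11.9 and 21.1 CPM in Tom- oil, 6.57, 5.02 and 25.7 in Tom+ oil, 11.1, 20.4 and 29.4 in Tom- CCl4 and 9.85, 10.9 and 15.7 in Tom+ CCl4. Replicate 3 was the highest in all 4 groups and the ranges overlapped throughout. The log2 fold change was 0.48 (SE 0.621, edgeR adjusted p = 0.642) in Tom- cells, with a 95% interval of -0.74 to 1.69, and ranged from 0.11 without Tom- CCl4 replicate 3 to 0.84 without Tom- oil replicate 3.

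Cxcl12 (chr6:117168535-117181367, plus strand, mm10) was the steadiest gene. It was at 213, 235 and 205 CPM in Tom- oil, 243, 262 and 199 in Tom+ oil, 256, 245 and 230 in Tom- CCl4 and 250, 232 and 206 in Tom+ CCl4, with coefficients of variation of 5.47% to 13.9% within groups. Its highest library was 1.47 times its lowest on the TPM scale. CCl4 against oil gave log2 fold changes of 0.16 (95% interval -0.055 to 0.38) in Tom- and -0.034 (-0.25 to 0.18) in Tom+ cells.

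Cxcl16 (chr11:70453983-70459984, minus strand, mm10), a membrane-bound ligand of CXCR6 on T and NKT cells, was at 4.59, 3.86 and 6.48 CPM in Tom- oil and 7.43, 7.52 and 8.28 CPM in Tom- CCl4. The groups did not overlap, and the log2 fold change of 0.64 (SE 0.209, 95% interval 0.23 to 1.05) missed the threshold with an edgeR adjusted p of 0.053. Without Tom- oil replicate 3 it was 0.88 (adjusted p = 0.0173), which passes both thresholds, and without Tom- oil replicate 2 it was 0.48 (adjusted p = 0.179). In Tom+ cells it was at 4.43, 4.33 and 6.93 CPM in oil and 5.44, 4.98 and 5.30 CPM in CCl4, a log2 fold change of 0.0085 (-0.40 to 0.42). Cxcl16 overlaps exons of Zmynd15 on the opposite strand, with the same caveat as for Cxcl10. Endothelial markers, of which 10 of 10 were called higher in Tom- CCl4 than in Tom- oil, rose in the same libraries, and their part in the result was not tested.

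**Figure D3:**
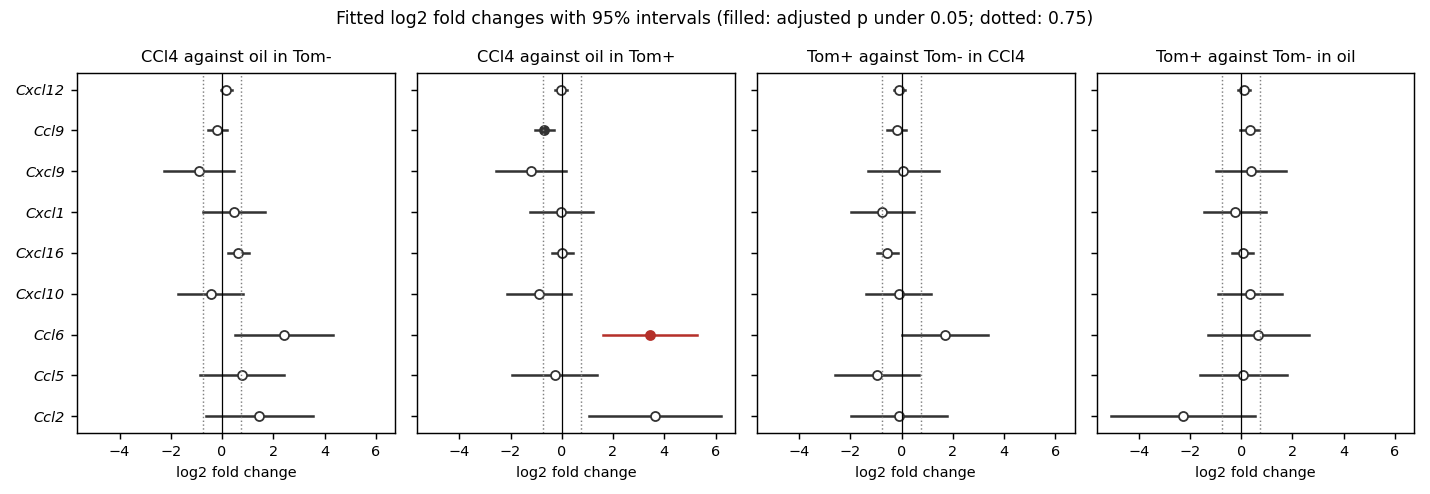
Fitted log2 fold changes (points) with 95% intervals (lines, 1.96 SE on each side) of the 9 tested chemokine genes in 4 comparisons, filled where the adjusted p was under 0.05 and red where the fold threshold was passed as well. Ccl6 in Tom+ cells is the only red point, and Ccl9 in Tom+ cells the only other filled one.

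Tom+ and Tom- fractions were compared within each treatment. None of the 9 genes was called in CCl4, where 1.96% of all genes were called (0.222% higher and 1.74% lower) and 3901 had an unadjusted p under 0.05, and none in oil, where 0 genes of the whole table were called and 1198 had an unadjusted p under 0.05. DESeq2 also called 0 of the 9 genes in both. The median log2 fold change of the 9 genes was -0.11 in CCl4 and 0.11 in oil, beside 0.0042 and 0.0070 for all genes. In CCl4 the groups did not overlap for 2 genes, Cxcl16 and Ccl5, both lower in Tom+, beside 14.6% of all genes that were lower without overlap and 28.7% in either direction. In oil the groups overlapped for all 9 genes, whereas 11.7% of all genes had no overlap (6.11% higher and 5.57% lower).

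Libraries with the same replicate number resembled each other across fractions, and ratios within each such pair are given too. The reporter was higher in Tom+ in 3 of 3 CCl4 pairs but in only 1 of 3 oil pairs. The oil ratios therefore compare libraries by label, and 2 of the 3 pairs did not differ in that direction by reporter. In CCl4, Cxcl16 was lower in Tom+ in 3 of 3 pairs, at 0.732, 0.662 and 0.64 times the Tom- level. The log2 fold change was -0.56 (SE 0.208) with an edgeR adjusted p of 0.126, and 0.0111 in a fit blocked on the replicate number, still inside the fold threshold. Ccl9 in CCl4 was at 0.738, 0.948 and 0.932 times the Tom- level, and in oil at 1.21, 1.26 and 1.29 times. It was thus lower in 3 of 3 pairs in one treatment (beside 26.5% of all genes) and higher in 3 of 3 in the other (beside 17.4%). The fitted values were -0.18 in CCl4 (adjusted p = 0.617) and 0.32 in oil (adjusted p = 0.783), and their difference was -0.51 (SE 0.268, adjusted p = 0.338), or -0.53 with an adjusted p of 0.00899 under the block. Cxcl1 was lower in Tom+ in 3 of 3 CCl4 pairs as well, at 0.887, 0.534 and 0.535 times, with a log2 fold change of -0.74 (SE 0.623, adjusted p = 0.532). Ccl5 was at 0.811, 0.211 and 0.565 times the Tom- level in CCl4, with -0.97 (SE 0.837, adjusted p = 0.539). Cxcl12 ratios stayed between 0.897 and 1.14 in the 6 pairs. Ccl6 differed among CCl4 pairs, at 0.402, 2.2 and 6.48 times, and was 1.69 higher on the log2 scale (SE 0.855, adjusted p = 0.278).

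**Figure D4:**
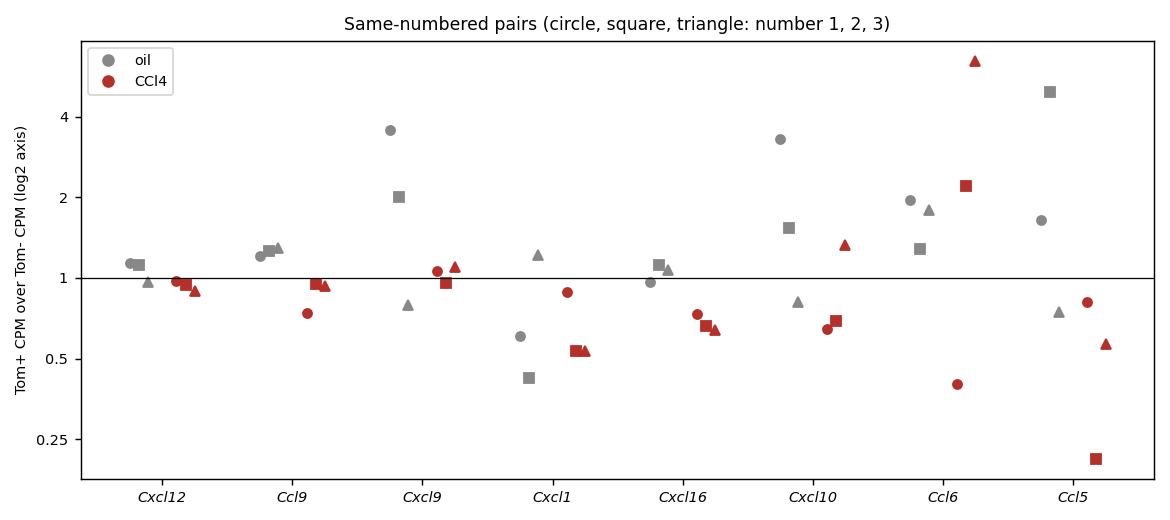
Ratio of Tom+ to Tom- CPM within each same-numbered pair of libraries (log2 axis) for 8 chemokine genes, in oil (grey) and in CCl4 (red), with a line at equal levels. Ccl9 lies above the line in the 3 oil pairs and below it in the 3 CCl4 pairs, and the CCl4 pairs of Ccl6 run from 0.402 to 6.48.

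The interaction of fraction and treatment was called for 0 of the 9 genes, beside 1.17% of all genes (0.216% higher and 0.958% lower), and 3178 genes had an unadjusted p under 0.05. Cxcl16 had a value of -0.63 (SE 0.295, edgeR adjusted p = 0.272), and with the block the adjusted p was 0.0435. All interaction values use the oil fractions, which the reporter separated in 1 of 3 pairs. The endothelial markers were lower in Tom+ than in Tom- cells in CCl4 as well, with 6 of 10 called, and their part in the Cxcl16 difference was not tested.

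Cx3cl1 (chr8:94772009-94782427, plus strand, mm10), the membrane-bound ligand of CX3CR1 on monocytes and resident macrophages, had 4, 10 and 6 counts in Tom- oil, 0, 0 and 2 in Tom+ oil, 2, 4 and 0 in Tom- CCl4 and 4, 8 and 2 in Tom+ CCl4. The oil fractions, which the reporter separated in only 1 of 3 pairs, did not overlap. The 2-sided exact permutation p was 0.1, the smallest that 3 against 3 libraries allow. The summed counts per library size were 11.7 times higher in Tom- oil than in Tom+ oil, with an exact 95% interval of 2.85 to 104, from at most 10 counts per library. That interval leaves out the spread between libraries. All counts of Cx3cl1 were even, so that both mates of a pair appear to be counted and the interval is too narrow for counting error as well.

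Cxcl9 and Cxcl10 had similar profiles over the 12 libraries. Their log2 CPM correlated at r = 0.879, and Cxcl9 was 2.66 to 8.28 times Cxcl10 in TPM (median 5.07), while Cxcl9 itself varied 8.94-fold. Ccl6 and Ccl9 did not run together in that way (r = -0.242). The libraries share groups and numbers and are not independent, and these values are descriptions with no test. Among the 17120 other genes the profiles nearest to Cxcl9 included those of Gbp6 (r = 0.954), an interferon-induced GTPase gene, and Gm43302 (r = 0.944), which overlaps Gbp6. Nearest to Cxcl10 were Mpeg1 (r = 0.948), a pore-forming protein of macrophages, Art2b (r = 0.917) and the interferon-induced GTPase gene Tgtp2 (r = 0.904). Nearest to Ccl6 were Itgam (r = 0.951), Gm49368 (r = 0.944), which overlaps Itgam, and Map4k4 (r = 0.944). Ccl5 was nearest to Il1b (r = 0.952), the interleukin-1 beta gene, and H2-DMa (r = 0.945), which serves antigen loading on MHC class II. For Cxcl12 the nearest gene was Srebf1 (r = 0.936), the regulator of fatty acid synthesis, and for Cxcl1 Txnip (r = 0.957), a thioredoxin-binding protein. Klhl4 (r = 0.948) was nearest to Cxcl16, Baz1a (r = 0.936) to Ccl2 and Rasl12 (r = 0.914) to Ccl9.

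Few of the other chemokine ligands had enough counts to be tested. Of the 28 further ligands on the list, 7 were tested, 11 did not exceed 3 counts in any library and 7 of these had no count at all. Cxcl14, a ligand made by epithelial and stromal cells, was the 1 further ligand called. It was called higher with CCl4 in both fractions, where 6.33% of all genes were in Tom- and 2.9% in Tom+ cells. It was at 0.0791, 0.136 and 0.245 CPM in Tom- oil and 0.809, 0.608 and 1.18 in Tom- CCl4, a log2 fold change of 2.46 (SE 0.717, edgeR adjusted p = 0.033), and it rose by 2.30 in Tom+ cells (SE 0.68, adjusted p = 0.0491). These calls held in 17 of 24 alternatives in Tom- and 12 of 24 in Tom+ cells, and in 7 and 3 of the 12 fits without a single library. Of 23 receptor genes 12 were tested, and 2 were called higher with CCl4 in Tom- cells, where 6.33% of all genes were, while in Tom+ cells 1 was called higher and 1 lower, beside 2.9% and 2.34% of all genes. Ccr2, the receptor of Ccl2, had 0, 2 and 2 counts in Tom- oil and 14, 10 and 14 in Tom- CCl4 (log2 fold change 3.34, edgeR adjusted p = 0.0172), a call that held in 20 of 24 alternatives. Ackr3, the atypical receptor of Cxcl12, had 0 counts in all Tom- oil libraries and 4, 10 and 8 in Tom- CCl4, at least 8.25-fold higher against a floor of 3 counts over the group (adjusted p = 0.0271, called in 17 of 22 alternatives). Cx3cr1, the receptor of Cx3cl1, had 8, 2 and 4 counts in Tom+ oil and 36, 26 and 40 in Tom+ CCl4 (2.82, adjusted p = 0.0323, called in 17 of 24 alternatives). Ccr10, the receptor of the skin and mucosal ligands Ccl27a and Ccl28, had 23, 16 and 11 counts in Tom+ oil and 6, 2 and 2 in Tom+ CCl4 (-2.41, adjusted p = 0.0483), a call that held in 8 of 24 alternatives and in 1 of 12 fits without a single library. Ccr1, the receptor of Ccl6 and Ccl9, is named after its values were seen: it was not tested and had 0 to 2 counts in the 6 oil libraries and 6 to 78 in the 6 CCl4 libraries. Ackr4, the atypical receptor of Ccl19 and Ccl21, is also named after its values were seen, as a receptor gene well above the detection limit, with group means of 17.4 to 22.8 TPM and no call in any comparison. Its deposited values were not whole in 10 of the 12 libraries, so that part of its counts may be shared with other features. Exon overlaps of Ackr4 were not looked at. The Cx3cr1 exons overlap Gm33858 on the opposite strand, so that Cx3cr1 counts are uncertain if strand was not used in counting, although all its deposited values were whole. The macrophage marker sums given above were 81.2 to 240 CPM in the CCl4 and 20.7 to 168 CPM in the oil libraries, and their part in the receptor results was not tested.

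Of 6 proteases that trim or release chemokines, all were tested. With CCl4, 2 gelatinase genes were called higher in Tom- cells, beside 6.33% of all genes. Mmp2, a gelatinase known from stellate cells, was at 0.158, 0.0775 and 0.368 CPM in Tom- oil and 1.11, 1.83 and 1.10 CPM in Tom- CCl4 (log2 fold change 2.72, edgeR adjusted p = 0.0311). Mmp9, a gelatinase of neutrophils and macrophages, had 0, 0 and 2 counts in Tom- oil and 10, 10 and 42 in Tom- CCl4 (adjusted p = 0.0109), a ratio of summed counts of 34.9 with an exact 95% counting interval of 9.26 to 294, too narrow since both mates of a pair appear to be counted. These calls held in 20 of 24 alternatives for Mmp2 and 23 of 24 for Mmp9, which lost it without Tom- CCl4 replicate 3. No protease gene was called in Tom+ cells, where 5.24% of all genes were called in either direction. The stellate cell markers summed to 9.26 to 26.0 CPM in the oil and 54.7 to 115 CPM in the CCl4 libraries, and their part in the Mmp2 result was not tested.

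NF-kappaB and interferon signalling are known inducers of several of these chemokines, and lists of their other target genes were looked at too. Of 12 tested NF-kappaB-responsive genes, 2 were called higher with CCl4 in Tom- cells and 0 in Tom+ cells, beside 6.33% and 2.9% of all genes. The groups did not overlap for 4 higher and 2 lower genes in Tom- cells, beside 19.3% and 16.8% of all genes. The median log2 fold change of this list was 0.13 in Tom- and -0.0785 in Tom+ cells, where 5 genes had a positive and 7 a negative value. Icam1, the adhesion molecule for leukocyte integrins, was at 5.75, 9.65 and 13.0 CPM in Tom- oil and 18.2, 19.7 and 21.6 in Tom- CCl4 (log2 fold change 1.06, edgeR adjusted p = 0.00807). Relb, an NF-kappaB subunit, rose by 1.10 (adjusted p = 0.0423), a call that held in 15 of 25 alternatives, whereas that of Icam1 held in 25 of 25. Of 20 interferon-responsive genes, 2 were called higher (Stat2 and Oas1a) and 1 lower (Psmb9) in Tom- cells, beside 6.33% and 1.59% of all genes. In Tom+ cells 0 were called higher and 1 lower (Psmb9), beside 2.9% and 2.34% of all genes. The groups did not overlap for 9 of the 20 in Tom+ cells, all lower with CCl4, beside 14.6% of all genes. Psmb9, an immunoproteasome subunit induced by interferon-gamma as Cxcl9 is, fell by 0.80 in Tom- (adjusted p = 0.0316) and by 0.93 in Tom+ cells (adjusted p = 0.022). Oas1a, a sensor of double-stranded RNA, rose by 1.66 in Tom- cells (adjusted p = 0.0224). The Oas1a call held in 18 of 25 alternatives, and those of Psmb9 in 19 of 25 in Tom- and 20 of 25 in Tom+ cells. Stat2, a transcription factor of type I interferon signalling, rose by 1.05 in Tom- cells (adjusted p = 2.34e-04) and differed by -0.83 between Tom+ and Tom- cells in CCl4 (adjusted p = 0.0051). The median log2 fold change of the interferon list was -0.012 in Tom- and -0.34 in Tom+ cells. Icam1 overlaps Gm47079, and Psmb9 overlaps Tap1 on the opposite strand.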

How the data were processed

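Bulk RNA-seq was available for Tom+ and Tom- hepatocytes of oil- or CCl4-treated p16-Tom mice (3 libraries per group). Per the labels and the methods, RNA was poly-A enriched and made into strand-specific libraries, and per the processing notes of the authors the tools were fastp (v0.23.2) for read checks, HISAT2 (v2.1.0) for alignment to the mm10 build and DESeq2 (v1.42.1). The counting program and its strand setting are not given in the sources used here.

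The authors deposited unnormalized expected counts for each feature. Between 30.4% and 32.9% of non-zero values per library were not whole, so that they were rounded before testing, whereas whole counts had been assumed in the design. Of the whole values from 1 to 20, 66.2% to 71.1% were even, so that both mates of a pair appear to be counted and counting intervals are too narrow.

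Features were matched to symbols by Ensembl identifier (99.8%). The package edgeR (v4.0.16, under R v4.3.3) was used with filterByExpr, TMM scaling and its robust quasi-likelihood F-test, all 12 libraries being fitted jointly, with Benjamini-Hochberg adjustment over all 17121 genes. Genes were called at an adjusted p under 0.05 and a log2 fold change beyond 0.75, and 95% intervals are 1.96 SE on each side. CPM use TMM, TPM use the deposited feature lengths, and correlations use log2 CPM with a prior count of 2. The fits were also run on simulated data with independent libraries. That setting leaves out the resemblance of same-numbered libraries described below, and no conclusion is drawn from it. The 10 genes and the lists were chosen with earlier results of these data known. Named are the 10 genes, other chemokine ligands, receptors and proteases that were called, called NF-kappaB- and interferon-responsive genes, and the genes nearest in profile. Deviations of same-numbered Tom+ and Tom- libraries correlated at 0.439 to 0.667 in CCl4 and 0.383 to 0.505 in oil over 11578 genes, the numbers coming from the labels, so that a replicate block was fitted as an alternative. Other alternatives were DESeq2 (v1.42.0), limma-voom (v3.58.1), other normalizations and filters, leaving out libraries, and, added after seeing the data, summing same-numbered fractions. Plots were made in matplotlib (v3.10.9, Python v3.11.15). One gene near in profile to Cxcl9 is not reported here.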

Additional observations from a re-analysis of the deposited data

Results flagged for a closer look

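The response of Stat2 to CCl4 differed between the fractions by a test of the difference itself, the interaction of fraction and treatment, at -1.29 on the log2 scale (edgeR adjusted p = 0.00738). Stat2 was at 49.3, 51.5 and 68.3 CPM in Tom- oil and 103, 126 and 122 CPM in Tom- CCl4, against 77.1, 82.7 and 72.8 CPM in Tom+ oil and 70.4, 60.4 and 66.8 CPM in Tom+ CCl4. The interaction was called in 22 of 22 alternatives that gave a value. For Cxcl11, the third CXCR3 ligand beside Cxcl9 and Cxcl10, the interaction was -1.56 and missed the threshold in the fit over 12 libraries (adjusted p = 0.0532). It was called in 5 of 22 alternatives, among them the fit blocked on the replicate number (adjusted p = 0.00451). Cxcl11 was at 2.22, 1.74 and 1.23 CPM in Tom- oil, 2.80, 3.32 and 1.88 in Tom+ oil, 2.93, 2.60 and 3.25 in Tom- CCl4 and 1.70, 1.31 and 1.61 in Tom+ CCl4, and its Tom+ value was above the Tom- value in each of 3 oil pairs and under it in each of 3 CCl4 pairs. Over all genes, 17.4% were higher in Tom+ in 3 of 3 oil pairs and 26.5% lower in 3 of 3 CCl4 pairs. Cxcl11 shares exon positions with Gm2673 on the opposite strand. Both interactions use the oil fractions, which the reporter separated in 1 of 3 pairs. Endothelial markers differed between the fractions in the same direction, with 10 of 10 negative interaction values, of which 2 were called in the fit over 12 libraries and 10 with the block, and their part in either result was not tested.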

How the results depend on the processing

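The count of chemokine genes called was 0 in the comparisons of Tom+ with Tom- in CCl4 and in oil and in the interaction under every alternative run. For CCl4 against oil in Tom- cells it moved from 0 to 1 (Ccl6) with DESeq2, with edgeR over 6 libraries and with the replicate block, and to 2 when both fractions were averaged. In Tom+ cells it moved from 1 to 0 with edgeR over 6 libraries, upper-quartile normalization, limma-voom, no filter, a filter of 10 counts in all libraries, the replicate block and without the 2 oil libraries whose reporter went against the label, and to 2 with the adjusted p alone and when both fractions were averaged. With same-numbered fractions summed, an alternative added after seeing the data, it was 0 in both. Leaving out single libraries gave 0 to 1 in both fractions, the 1 in Tom- cells being Cxcl16 without Tom- oil replicate 3 and Ccl6 without Tom+ CCl4 replicate 1 or 3. With the replicate block Ccl6 in Tom- cells was at 2.51 (adjusted p = 0.00769), but same-numbered CCl4 and oil libraries correlated at only 0.0123 to 0.0789 in Tom- and 0.0215 to 0.29 in Tom+ cells and share only a number. In Tom+ cells the block gave Ccl6 a value of 2.81 (adjusted p = 0.0548). The block changed no other call among the 9 genes where it gave a value. For CCl4 against oil it did not test Ccl2 in either fraction or Ccl5 in Tom+ cells. Among the lists it moved the calls for CCl4 against oil from 0 to 3 higher in Tom- and from 0 to 6 higher in Tom+ cells for the 12 macrophage markers, from 2 to 0 in Tom- cells for the receptors (Ackr3 was not tested there), from 2 to 1 in Tom- cells for the NF-kappaB list and from 2 to 0 in Tom+ cells for the 38 ligands, Cxcl14 and Ccl6 being lost. Without the 2 oil libraries, values turned sign for Cxcl12 in Tom+ (0.060) and between oil fractions (-0.0085) and for Cxcl16 in Tom+ cells (-0.10), while those in Tom- cells moved to 0.36 for Ccl5, 0.30 for Cxcl1, -1.35 for Cxcl9, -0.85 for Cxcl10 and -0.10 for Ccl9. Cxcl12 in Tom+ cells was 0.065 with both fractions averaged, 0.043 with them summed, 0.054 without Tom+ oil replicate 2 and 0.037 without Tom+ CCl4 replicate 3, and Cxcl16 in Tom+ cells was -0.099, -0.11 and -0.022 without Tom+ oil replicate 1, Tom+ oil replicate 2 and Tom+ CCl4 replicate 1. Ccl9 between CCl4 fractions was 0.013 without Tom+ CCl4 replicate 1. Without Tom- oil replicate 3, Cxcl9 and Cxcl10 in Tom- cells turned to 0.16 and 0.36. Over all fits without a single library, these ran from -0.14 to 0.054 for Cxcl12 and -0.11 to 0.26 for Cxcl16 in Tom+ cells, -1.36 to 0.16 for Cxcl9 and -0.86 to 0.36 for Cxcl10 in Tom- cells, and -0.40 to 0.013 for Ccl9 between CCl4 fractions. The Ccl6 interaction was -0.0090 with limma-voom and ran from -0.57 to 1.60 without single libraries, the negative value being that without Tom+ CCl4 replicate 3. The causes were not tested. Depth limits Ccl2, Ccl5 and Cx3cl1, which had at most 24 counts per library.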
